A study of Mus musculus with 2 samples.

Results

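The 40 Polycomb and Trithorax complex genes described here were chosen by symbol from a fixed list and looked up among the 55536 gene entries of the deposited GENCODE M21 tables, where each was found once. RNA came from limbs of B6NCrl mouse embryos at embryonic day 12.5. The labels give 1 group of 2 biological replicates, with 88 embryos pooled in replicate 1 and 68 in replicate 2, both sexes together and no genetic change or treatment. Each library held polyadenylated RNA, copied into cDNA from an oligo-dT primer. Pooling leaves no spread between single embryos. With 1 group the design allows 2 kinds of comparison, between genes and between the 2 libraries; genes were set against the spread between libraries and given no p-value.

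Polycomb and Trithorax proteins keep developmental genes switched off or on through cell divisions by marking histones. Polycomb repressive complex 2 (PRC2) methylates lysine 27 of histone H3, PRC1 adds ubiquitin to histone H2A, and the MLL/COMPASS complexes methylate lysine 4 of histone H3 at active promoters and enhancers. Hox genes, which pattern the limb axes, are classic targets of both systems, and several subunits come in alternative versions encoded by paralogs.

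Depth was 29633457 expected counts over genes in replicate 1 and 30118921 in replicate 2. Marker genes of limb mesenchyme (Prrx1, 160 and 155 TPM in replicates 1 and 2), cartilage (Sox9, 197 and 195 TPM), muscle, epidermis and red blood cells were present, so the tissue was a mixture. Some markers differed more between the libraries. Col2a1 (426 and 344 TPM), Acan (8.07 and 3.90 TPM) and Tbx5 (39.96 and 28.38 TPM) were higher in replicate 1, and Pitx1 (136 and 164 TPM) in replicate 2. Of the neuron, liver and heart markers, Nkx2-5 had 0 reads in both libraries and the highest was Stmn2 at 5.66 and 8.79 TPM. In such bulk RNA, fewer cells of a type and less RNA per cell cannot be told apart. Levels are in TPM, which divides reads by transcript length and scales the library to a fixed total. Genes can so be compared as far as reads cover long and short transcripts evenly, which was not tested.

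The promoters of 4 genes are shown first, because these genes differ in how much RNA a paralog gave or in which start the transcript estimates favoured. They are RefSeq windows of 300 bases on GRCm38.p6, the sequence of mm10, from 250 bases before to 50 after a start, written 5′ to 3′ on the gene's strand. The first pair belongs to the catalytic paralogs of PRC2, Ezh2 (chr6:47594981-47595280, minus strand) and Ezh1 (chr11:101226414-101226713, minus strand), and capitals mark matches to the E2F-type motifs TTTGGCGC and TTTCCCGC on either strand.
Ezh2: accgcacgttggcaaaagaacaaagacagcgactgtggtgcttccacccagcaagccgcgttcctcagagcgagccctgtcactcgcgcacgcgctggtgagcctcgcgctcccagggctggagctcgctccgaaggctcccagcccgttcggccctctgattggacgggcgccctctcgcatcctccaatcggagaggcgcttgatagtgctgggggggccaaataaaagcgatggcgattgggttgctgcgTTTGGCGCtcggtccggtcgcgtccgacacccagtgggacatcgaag
Ezh1: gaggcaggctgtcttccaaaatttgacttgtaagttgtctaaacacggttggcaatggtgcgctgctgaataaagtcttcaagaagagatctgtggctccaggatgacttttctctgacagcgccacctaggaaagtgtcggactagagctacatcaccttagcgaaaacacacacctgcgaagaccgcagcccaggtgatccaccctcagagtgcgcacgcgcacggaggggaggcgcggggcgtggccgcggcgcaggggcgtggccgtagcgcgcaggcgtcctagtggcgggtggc

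Ezh2's window held 1 such match and Ezh1's held 0. Transcripts starting in the Ezh2 window held 50.1% and 50.8% of its TPM in replicates 1 and 2, and those starting in the Ezh1 window 72.8% and 74.6%. The shorter motif CCAAT, bound by NF-Y, was present 3 times in the Ezh2 window and 0 times in the Ezh1 window, counting both strands and no overlap with the E2F-type match. Across the 48 promoter windows found for 33 of the 40 genes, 3 held an E2F-type match, those of Ezh2, Suz12 and Phf19. The share was 6.25%, against 1.56% of all 32851 windows and 2.84% of the 12852 windows of protein-coding genes at 1 TPM. A match describes letters only, and the 3 genes that had one spanned nearly the whole range of levels, Phf19 being the lowest of all. CCAAT was in 39.6% of the windows of these genes and in 37.9% of those of expressed protein-coding genes. The median number of CpG dinucleotides was 24 in the windows of these genes and 20 in those of expressed protein-coding genes.

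The next windows belong to Kdm2b (minus strand) and Phc2 (plus strand). Each gene has 3 separate windows, of which 1 internal and the most distal are printed. Capitals mark CpG dinucleotides, the letters that the KDM2B zinc finger binds when they are unmethylated. The Kdm2b windows are chr5:122900301-122900600 (internal) and chr5:122989050-122989349 (distal). The Phc2 windows are chr4:128727321-128727620 (internal) and chr4:128654452-128654751 (distal).
Kdm2b internal start: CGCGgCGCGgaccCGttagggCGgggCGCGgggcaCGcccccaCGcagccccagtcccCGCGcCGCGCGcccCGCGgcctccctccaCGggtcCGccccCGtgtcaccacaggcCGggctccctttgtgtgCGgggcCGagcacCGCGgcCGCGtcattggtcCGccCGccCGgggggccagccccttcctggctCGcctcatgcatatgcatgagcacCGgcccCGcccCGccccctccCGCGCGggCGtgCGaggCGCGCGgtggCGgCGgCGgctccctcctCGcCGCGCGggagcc
Kdm2b distal start: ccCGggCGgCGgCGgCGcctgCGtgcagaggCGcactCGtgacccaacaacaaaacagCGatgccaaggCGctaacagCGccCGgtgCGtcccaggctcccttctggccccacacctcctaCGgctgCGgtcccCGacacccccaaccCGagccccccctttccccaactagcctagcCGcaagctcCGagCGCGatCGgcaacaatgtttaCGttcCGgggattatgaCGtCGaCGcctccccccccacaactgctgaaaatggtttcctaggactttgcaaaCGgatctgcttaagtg
Phc2 internal start: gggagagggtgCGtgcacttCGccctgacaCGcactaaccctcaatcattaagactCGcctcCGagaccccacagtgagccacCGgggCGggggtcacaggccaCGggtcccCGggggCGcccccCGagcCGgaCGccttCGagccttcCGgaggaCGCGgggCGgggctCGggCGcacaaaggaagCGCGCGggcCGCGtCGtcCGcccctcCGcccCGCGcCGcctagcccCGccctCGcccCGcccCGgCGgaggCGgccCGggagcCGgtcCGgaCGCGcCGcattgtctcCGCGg
Phc2 distal start: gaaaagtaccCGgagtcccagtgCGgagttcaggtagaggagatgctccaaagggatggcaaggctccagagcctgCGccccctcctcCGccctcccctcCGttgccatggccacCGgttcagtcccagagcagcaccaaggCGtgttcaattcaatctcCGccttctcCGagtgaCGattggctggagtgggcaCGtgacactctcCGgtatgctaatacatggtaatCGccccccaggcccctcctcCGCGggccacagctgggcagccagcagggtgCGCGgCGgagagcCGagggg

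Of the printed windows, the internal ones were the denser in CpG, with 49 against 28 CpG in Kdm2b and 45 against 19 in Phc2. The unprinted Phc2 window, chr4:128688488-128688787, had 2 CpG, and its transcripts held 0% and 0.29% of the TPM. The internal windows were also those whose transcripts held most of each gene's TPM in the transcript estimates given further on.

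Of the 40 genes, 39 reached 1 TPM in both libraries, or 97.5%, against 58.1% of the 22028 annotated protein-coding genes. The exception was Phf19. Their median level was 24.7 TPM, close to the 22.4 TPM of the 12802 protein-coding genes at 1 TPM. Levels ran from 0.64 TPM (Phf19) to 467 TPM (Rbbp4). At least 10 TPM was reached in both libraries by 33 genes (82.5%, against 68.4% of protein-coding genes at 1 TPM), at least 50 TPM by 15 (37.5% against 26.3%) and at least 100 TPM by 6 (15% against 12.5%). The median of the list was thus near that of expressed genes, while its shares above 10, 50 and 100 TPM were higher.

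**Figure D1:**
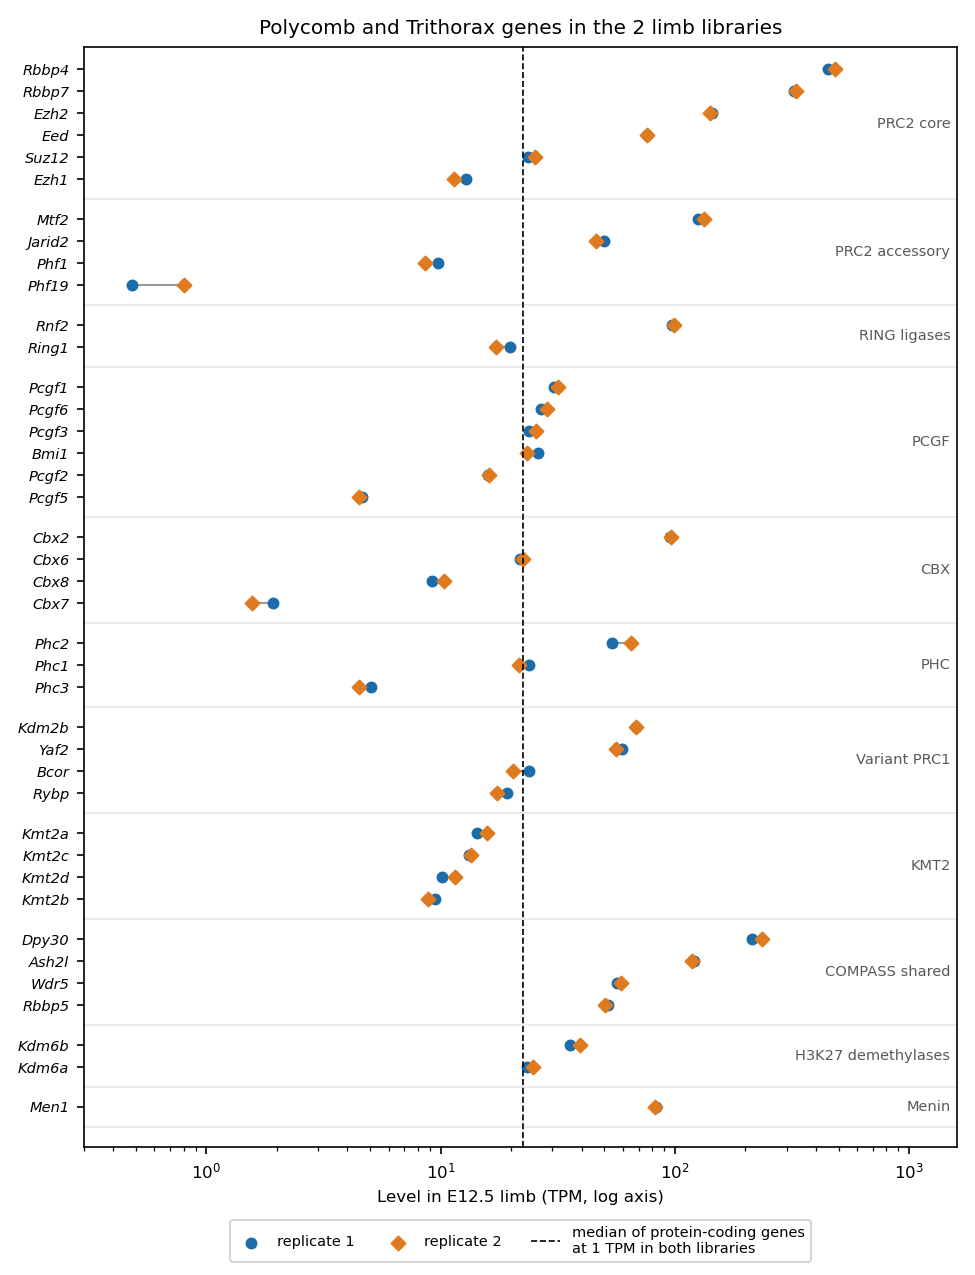
Level of each of the 40 genes in TPM on a log axis, grouped by role and ordered by mean; circles are replicate 1, diamonds replicate 2, and the dashed line is the 22.4 TPM median of protein-coding genes at 1 TPM in both libraries. In most genes the 2 libraries nearly coincide, while paralogs of one role lie up to 202-fold apart (Mtf2 and Phf19).

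PRC2 is built on a catalytic subunit (EZH1 or EZH2), EED, which binds the methyl mark, the scaffold SUZ12 and a histone chaperone (RBBP4 or RBBP7). Ezh2 (chr6:47530139-47595341) stood at 144 TPM in replicate 1 and 142 TPM in replicate 2, and Ezh1 (chr11:101191115-101226463) at 12.8 and 11.4 TPM. The 2 genes did not overlap, and Ezh2 was 11.8-fold higher, with log2 ratios of 3.49 and 3.64 in the 2 libraries. A ratio is called beyond the spread here when both libraries agree in sign and the smaller absolute log2 ratio exceeds the 95th percentile of library differences among 500 genes of a level close to that of the lower gene. That percentile was 0.49 for Ezh1, so Ezh2 exceeded it by far.

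Eed stood at 76.0 and 76.2 TPM, with no visible difference between the libraries. Suz12 stood at 23.5 and 25.3 TPM. The obligate partners were thus unequal in RNA: Ezh2 was 5.85-fold and Eed 3.12-fold above Suz12, both beyond the spread. The chaperones were the 2 highest genes of the list, Rbbp4 at 451 and 483 TPM and Rbbp7 at 321 and 329 TPM. Both proteins also serve other chromatin complexes, such as NuRD.

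Rbbp4 (chr4:129307100-129335370, minus strand) was 1.44-fold above Rbbp7 (chrX:162760402-162779092, plus strand) on all transcripts, beyond a spread of 0.19 in log2. This order depended on what was counted as the gene. Transcripts with a complete coding sequence (CDS) gave Rbbp4 154 and 123 TPM and Rbbp7 319.99 and 327 TPM, so that Rbbp7 was 2.35-fold higher. The rest of Rbbp4's TPM lay mainly in 1 short noncoding entry, Rbbp4-203, of 722 nt. It took 64.0% and 72.7% of the gene's TPM but 20.6% and 27.9% of its reads.

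Accessory subunits steer PRC2 to chromatin: the Polycomb-like proteins MTF2, PHF1 and PHF19 in PRC2.1, and JARID2 in PRC2.2. Mtf2 (chr5:108065674-108109004) stood at 125 and 133 TPM, Jarid2 at 49.8 and 45.8 TPM, Phf1 at 9.76 and 8.56 TPM and Phf19 at 0.48 and 0.80 TPM. No value of one gene reached the range of the next, and each step down exceeded the spread. Phf19 rested on 33 and 23 reads, so its 202-fold distance from Mtf2, or 92.2-fold on complete coding transcripts, is imprecise. Among the 3 Polycomb-like genes, Mtf2 held 92.9% ± 0.72 (SD, n = 2) of the summed TPM.

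Complete coding transcripts left Mtf2 in the lead of that family, at 76.9%, but turned its order with Jarid2. On all transcripts Mtf2 was 2.70-fold above Jarid2; on complete coding transcripts Jarid2, at 45.4 and 39.4 TPM, was 1.61-fold above Mtf2, at 25.2 and 27.5 TPM. The entry Mtf2-208, 718 nt with an incomplete CDS, held 36.8% and 34.0% of Mtf2's TPM. Counting all protein-coding transcripts, such entries included, Mtf2 stayed above Jarid2. The log2 ratio of Jarid2 over Mtf2 was then -0.81, beyond a spread of 0.24. Phf1's level carries another limit: 1370 nt of its exons overlap Cuta on the opposite strand, which stood at 135 and 150 TPM, and the use of strand in counting is not given in the sources used here.

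PRC1 is organised around a RING ligase, RNF2 (RING1B) or RING1, paired with 1 of the PCGF proteins, which define the PRC1 variants. Rnf2 (chr1:151458004-151500955) stood at 97.1 and 98.9 TPM and Ring1 at 19.8 and 17.2 TPM. Rnf2 was higher in both libraries, by 5.30-fold, and held 84.1% ± 1.49 of the pair.

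The PCGF genes showed the opposite picture, with no dominant paralog. Pcgf1 stood at 30.5 and 31.7 TPM, Pcgf6 at 26.9 and 28.4 TPM, Pcgf3 at 23.8 and 25.6 TPM and Bmi1 (Pcgf4) at 26.1 and 23.3 TPM. Neighbours among these 4 did not differ beyond their spread. Pcgf2 (Mel18) stood at 15.9 and 16.1 TPM, below Bmi1 by 1.55-fold and beyond the spread. Pcgf5 was lowest, at 4.61 and 4.49 TPM, and Pcgf3, with which it shares a variant of the complex, was 5.44-fold higher.

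As shares of the summed PCGF TPM, Pcgf1 held 24.1%, Pcgf6 21.5%, Bmi1 and Pcgf3 each 19.2%, Pcgf2 12.4% and Pcgf5 3.53%. Which gene led was not stable: Bmi1 led on complete coding transcripts, at 22.7% against 21.04% for Pcgf1. Without replicate 1, Bmi1 lay below Pcgf1 beyond the spread (log2 ratio -0.44), whereas both libraries together did not give that call. Sequence shared with pseudogenes bears on 2 of these genes: 16.7% of the 50-nt windows of Bmi1 and 15.3% of those of Pcgf1 also occur in other annotated genes, mostly the pseudogenes Gm5946 and Gm8930, which were listed at no more than 0.09 TPM.

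CBX proteins read the H3K27 methyl mark in canonical PRC1, and the 4 CBX genes of the list sit in 2 pairs on the same chromosomes. Cbx2 (chr11:119022962-119031270, plus strand) stood at 95.3 and 96.2 TPM, and Cbx8 (chr11:119036305-119040969, minus strand) at 9.19 and 10.4 TPM. They lie 5.034 kb apart on opposite strands with no annotated gene between, yet Cbx2 was 9.80-fold higher. Cbx6 (chr15:79823896-79834688) stood at 21.8 and 22.5 TPM, and Cbx7 (chr15:79915807-79971119), 81.1 kb away on the same strand with 3 annotated genes between, at 1.93 and 1.56 TPM. Cbx6 was 12.7-fold above Cbx7, so both pairs were unequal beyond the spread.

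Cbx2 held 74.0% ± 0.48 of the TPM of the 4 genes, Cbx6 17.1%, Cbx8 7.54% and Cbx7 1.35%. Cbx2 was also among the genes with the simplest transcript picture, 98.3% of its TPM being in complete coding transcripts. Cbx8 was not: 46.3% of its TPM was in such transcripts, and its values on that basis were lower, leaving Cbx2 20.9-fold above it.

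Polyhomeotic proteins (PHC) join PRC1 complexes into larger assemblies through a SAM domain at the C-terminal end. Phc2 stood at 53.9 and 65.1 TPM, Phc1 at 23.9 and 21.6 TPM and Phc3 at 5.06 and 4.46 TPM. The order held in both libraries and each step was beyond the spread. Phc2 held 68.2% ± 4.52 of the family, with the widest library-to-library difference of any leading paralog.

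In variant PRC1, RYBP or YAF2 takes the place of a CBX protein. Yaf2 stood at 59.2 and 56.1 TPM and Rybp at 19.3 and 17.3 TPM. Yaf2 was 3.15-fold higher and held 75.9% ± 0.68 of the pair. Kdm2b, which brings the PCGF1 variant to CpG islands, stood at 68.5 and 68.2 TPM, and the corepressor Bcor, of the same complex, at 23.8 and 20.4 TPM. Kdm2b was 2.20-fold above Pcgf1, while Bcor and Pcgf1 did not differ beyond the spread in both libraries. Without replicate 1 Bcor lay below Pcgf1 (log2 ratio -0.63).

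**Figure D2:**
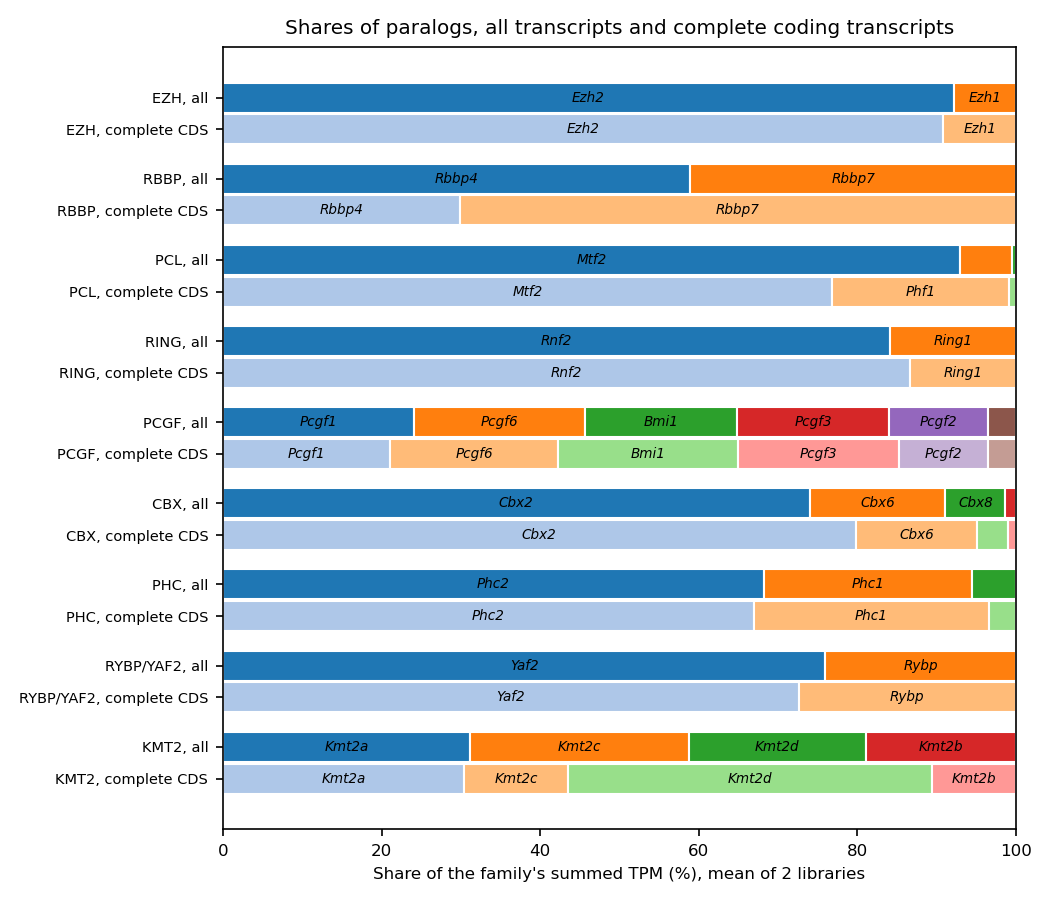
Share of each paralog in the summed TPM of its family (%, mean of the 2 libraries), with all transcripts in the upper, darker bar of each pair and only complete coding transcripts in the lower, paler bar. EZH, PCL, RING, CBX, PHC and RYBP/YAF2 have 1 leading gene in both bars, the RBBP order turns over, no PCGF gene exceeds 24.1%, and the lead in KMT2 passes from Kmt2a (31.1%) to Kmt2d (46.0%).

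On the Trithorax side, the KMT2 (MLL) methyltransferases carry the catalytic SET domain. Kmt2a (chr9:44803355-44881296) stood at 14.2 and 15.8 TPM, Kmt2c at 13.2 and 13.4 TPM, Kmt2d at 10.1 and 11.5 TPM and Kmt2b at 9.43 and 8.80 TPM. The 4 genes together reached 46.9 and 49.6 TPM, less than Ezh2 alone in that unit. No neighbouring pair in this order differed beyond the spread; Kmt2a was 1.65-fold above Kmt2b, beyond it. With the older M4 annotation, that last call was lost (log2 ratio 0.44).

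Complete coding transcripts ordered the KMT2 genes in another way. Kmt2d kept 9.05 and 10.9 TPM, Kmt2a 6.64 and 6.55 TPM, Kmt2c 2.89 and 2.74 TPM and Kmt2b 2.05 and 2.55 TPM. Kmt2d was then 3.54-fold above Kmt2c, where all transcripts had shown no difference beyond the spread. In Kmt2c, coding transcripts with an incomplete CDS held 73.1% of the TPM and 55.9% of the reads (means of the libraries). Counting all protein-coding transcripts, Kmt2c stayed above Kmt2d (log2 ratio 0.22), though not beyond a spread of 0.41. On complete coding transcripts Kmt2a was 2.88-fold above Kmt2b.

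The core shared by all COMPASS complexes, WDR5, RBBP5, ASH2L and DPY30, was higher in TPM than the KMT2 enzymes. Reads not divided by length, which favour long transcripts, gave a mixed order. Kmt2d, at 3535 and 4312 reads, lay above Dpy30 (2589 and 2857), Wdr5 and Rbbp5 but below Ash2l (5660 and 5607). Kmt2a lay above Rbbp5 only, and Kmt2b and Kmt2c lay below all the shared genes. Dpy30 (chr17:74299474-74323944) stood at 214 and 236 TPM, Ash2l at 120 and 118 TPM, Wdr5 at 56.3 and 58.6 TPM and Rbbp5 at 51.8 and 50.5 TPM. Dpy30 was 3.91-fold above Wdr5, and Ash2l 2.07-fold above Wdr5 and 2.33-fold above Rbbp5. Wdr5 and Rbbp5 did not differ beyond the spread. On complete coding transcripts Ash2l was 3.53-fold above Rbbp5. Menin, encoded by Men1, tethers KMT2A and KMT2B complexes; Men1 (chr19:6334979-6340891) stood at 83.3 and 82.1 TPM, 5.50-fold above Kmt2a and 9.07-fold above Kmt2b. On complete coding transcripts these folds were 11.2 and 32.2.

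The H3K27 demethylases remove the mark that PRC2 lays down. Kdm6b (JMJD3) stood at 35.5 and 39.1 TPM and the X-linked Kdm6a (UTX) at 23.5 and 24.9 TPM. Kdm6b was 1.54-fold higher, beyond a spread of 0.39 in log2, and 2.59-fold higher on complete coding transcripts. Uty, the Y-linked homologue of Kdm6a, was present at 14.8 and 15.0 TPM in these pools of both sexes.

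In all, 24 of the 28 gene pairs set side by side differed beyond the spread between libraries. The exceptions were Pcgf1 with Pcgf6, Bmi1 with Pcgf1, Bcor with Pcgf1, and Kmt2c with Kmt2d. The share among other gene pairs was not computed, and these pairs were chosen with earlier results known. The count of 24 therefore describes these pairs only. Across the 40 genes, level and mean transcript length were inversely related (Spearman's rho -0.40, a description over genes, which are not independent replicates).

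Transcript estimates showed how much of a gene's TPM lay in transcripts annotated with a complete coding sequence. They were read in the 36 genes with a mean of 5 TPM or more, which leaves out Phf19, Cbx7, Pcgf5 and Phc3. Complete coding transcripts held a median of 79.2% of the TPM of these genes, against 85.2% in the 10533 protein-coding genes at that level. They held at least 90% in both libraries in 8 genes, or 22.2%, against 38.9% of those protein-coding genes. In 6 genes, or 16.7%, they held under 50% in both libraries: Rbbp4, Mtf2, Cbx8, Kmt2a, Kmt2b and Kmt2c. Among all protein-coding genes at that level this share was 15.2%, so 6 of 36 was near the background. Counted in reads instead of TPM, Kmt2c alone stayed under 50%, since a short entry needs few reads for a high TPM. The measure leaves out protein-coding transcripts annotated with an incomplete CDS. Counting these too, coding transcripts held 99.4% and 99.6% of the TPM in Kmt2a, 95.7% and 92.7% in Kmt2c and 58.9% and 60.4% in Mtf2. They held 47.5% and 51.6% in Kmt2b, 49.1% and 43.5% in Cbx8 and 34.6% and 25.7% in Rbbp4.

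**Figure D3:**
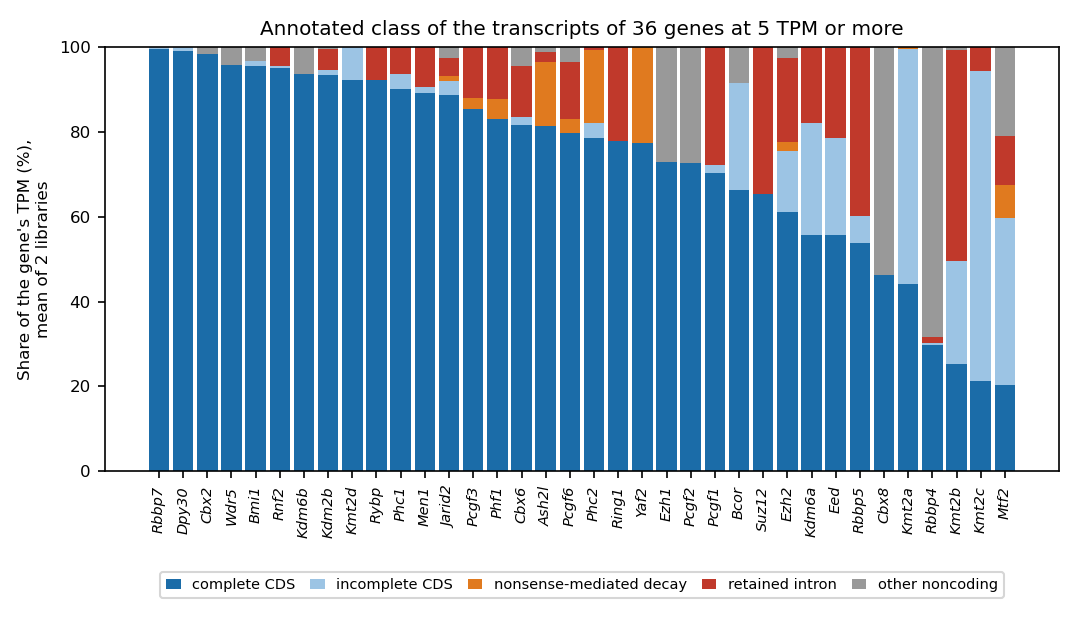
Share of each gene's TPM (%, mean of the 2 libraries) by annotated class of transcript for the 36 genes with a mean of 5 TPM or more, ordered by the share in complete coding transcripts. Rbbp7 and Dpy30 stand at the left with nearly all TPM in complete coding transcripts, and Mtf2, with 20.4%, at the right.

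Kmt2b shows how few reads can stand behind such a share. Its entry Kmt2b-207, a retained-intron transcript of 571 nt, held 44.2% and 40.5% of the gene's TPM on 38.9 and 33.5 estimated reads. Kmt2b-201, 8469 nt with the full coding sequence of 2721 codons, held 20.0% and 26.2% on 312 and 385 reads. Retained-intron entries were also prominent in Rbbp5, where Rbbp5-203 held 42.0% and 37.7%. In Yaf2 the second transcript, annotated for nonsense-mediated decay, held 24.5% and 20.9%.

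The deposited transcript estimates assigned Kdm2b RNA mainly to the internal start whose CpG-rich window is printed above. The transcript annotated to start there, Kdm2b-201, held 85.6% and 80.9% of the TPM, on 3974 and 3775 estimated reads. Its coding sequence of 776 codons shares its last 758 codons with that of the long form Kdm2b-203, of 1303 codons, and lacks the N-terminal part where the long protein has its JmjC demethylase domain. The window at chr5:122988458-122988757 held 5.53% and 5.31%, and the distal window printed above 5.55% and 5.05%. In these estimates the internal start led in both libraries by a wide margin. Reads in the shared 758 codons cannot tell the long and short forms apart, and 5′ ends of transcripts were not measured. Whether uneven coverage along the transcripts shaped this split was not tested.

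Phc2 gave the same picture in the estimates. Transcripts annotated from the internal start held 90.9% and 86.8% of the TPM, and those from the distal start 3.21% and 4.81%. The main transcript, Phc2-202, encodes 323 codons, and all of them are the last 323 codons of the 850 of Phc2-201. The short form therefore keeps the C-terminal end, with the SAM domain, and lacks the rest. Estimated reads were 2336 and 2722 for the internal start and 112 and 194 for the distal start. Reads in the shared 323 codons cannot tell the forms apart, so the split rests on reads elsewhere. Start use itself was not measured.

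In 7 of the 36 genes a second transcript held at least 25% of the TPM in both libraries: Rbbp4, Rbbp7, Cbx6, Cbx8, Phc1, Kmt2d and Men1. That is 19.4%, near the 20.5% of protein-coding genes at that level. The count rose to 15 without replicate 1 and to 10 without replicate 2, where only 1 library has to pass. In Phc1 the main pair, Phc1-215 and Phc1-202, differed by 156 nt of coding sequence, or 52 codons. They held 44.9% and 30.7% in replicate 1 and 53.4% and 27.8% in replicate 2. In Cbx6 the coding sequences of Cbx6-203 and Cbx6-202 differed by 54 nt, or 18 codons. The transcripts, of 5806 and 3056 nt, also differ outside the coding sequence. As whole transcripts they held 45.2% and 35.6% in replicate 1 and 47.2% and 35.3% in replicate 2.

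The 2 main Men1 transcripts, Men1-201 and Men1-203, encode the same 611 codons, so that the split between them, 37.9% and 40.6% in replicate 1 and 45.5% and 40.8% in replicate 2, is one of untranslated sequence. Kmt2d-201 and Kmt2d-202 both encode 5588 codons in transcripts of 19823 and 19805 nt. Unlike those of Men1, their coding sequences are not identical and differ in 1 nt after the first 5188 nt. The Kmt2d transcripts held 49.3% and 39.9% in replicate 1 and 51.6% and 43.8% in replicate 2. The 2 libraries gave the same order in Phc1, Cbx6 and Kmt2d, and opposite orders in Men1.

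The main Rbbp7 transcripts differ by a small in-frame stretch, among other differences, and both libraries estimated their shares alike. Rbbp7-201 (425 codons) has 27 nt of coding sequence, at chrX:162769764-162769790 on the plus strand (mm10), that Rbbp7-203 (416 codons) lacks. The stretch is shown in capitals with 24 nt of coding sequence on each side, from the GENCODE M21 transcripts.
Rbbp7-201: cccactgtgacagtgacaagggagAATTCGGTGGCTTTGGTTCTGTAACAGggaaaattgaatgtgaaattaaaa
Rbbp7-203: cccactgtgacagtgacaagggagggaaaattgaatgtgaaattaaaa

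The form with the 27 nt held 66.7% and 67.4% of Rbbp7's TPM, and the form without it 25.6% and 25.5%. The transcripts, of 2244 and 1862 nt, also differ outside the 27 nt, so these are shares of whole transcripts. These shares differed by less than 1 percentage point between the libraries. They rested on 9063 and 9492 reads for the longer form and 2862 and 2947 for the shorter.

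Kmt2a offered the contrast, a difference of 9 nt on which the libraries disagreed. Kmt2a-202 (3966 codons) has 9 nt, at chr9:44833898-44833906 on the minus strand (mm10), that Kmt2a-201 (3963 codons) lacks, in capitals here.
Kmt2a-202: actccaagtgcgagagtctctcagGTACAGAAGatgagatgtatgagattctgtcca
Kmt2a-201: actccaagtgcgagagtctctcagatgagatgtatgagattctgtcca

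The form without the 9 nt held 46.7% of Kmt2a's TPM in replicate 1 and 13.0% in replicate 2, and the form with it 0% and 28.3%. The authors' deposited credibility bounds were wide, 0.985 to 6.39 TPM for Kmt2a-201 and 0.0583 to 5.32 TPM for Kmt2a-202 in replicate 1, and the point estimate of Kmt2a-201, 6.64 TPM, lay outside its own bounds. In replicate 2 they were 0.748 to 4.99 TPM and 1.29 to 5.59 TPM. The bounds of each form overlapped between libraries, so a difference in the use of these 9 nt was not detectable. The sum of both forms was steadier, at 46.7% and 41.4%.

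The 2 libraries were then compared gene by gene, with an exact two-sided binomial test on expected counts, adjusted by Benjamini-Hochberg over 15926 genes at a mean of 1 TPM. This compares 2 pools of embryos and not conditions. At an adjusted p under 0.05 and a TPM ratio of at least 2, 0 of the 39 genes tested were called, where 1.07% of all genes were. Without the fold minimum the test called 8 of 39, or 20.5%, against 19.2% of all genes, a share near the background. The median log2 ratio of replicate 2 over replicate 1 was 0.01 in these genes and 0.01 in all genes, and the median absolute log2 ratio 0.10 against 0.12. In 24 of the 39 genes the libraries lay within 1.1-fold, a count whose share over all genes was not computed.

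The 8 genes were Rbbp4, Jarid2, Ring1, Phc1, Phc2, Kmt2d, Dpy30 and Kdm6b. Phc2 had the largest TPM ratio among them, 1.21-fold higher in replicate 2 (log2 ratio 0.27, adjusted p = 1.8e-05 by the exact binomial test), with reads of 2599 and 3011. Kmt2d, at 3535 and 4312 reads, was higher in replicate 2 by 0.18 in log2 TPM and 0.27 in log2 CPM (reads scaled to library size only). Among the 39 tested genes the largest TPM ratio belonged to Cbx7 (log2 -0.31), which did not pass the test on its 129 and 117 reads (adjusted p = 0.65, exact binomial test).

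TPM and reads pointed in opposite directions in 10 of the 39 genes, a count whose share over all genes was not computed. Some of the 10 had small log2 ratios by both, such as Eed (0.003 by TPM, -0.034 by CPM) and Rnf2 (0.026 and -0.012). Rbbp4 was the clearest: its TPM was 0.10 higher in log2 in replicate 2, while its CPM were lower by 0.16 (log2 -0.16, adjusted p = 6.8e-22, exact binomial test on the counts). Its reads were 17213 and 15624, and its mean transcript length as deposited was 2033 nt in replicate 1 and 1721 nt in replicate 2, beside the larger share of the 722-nt entry in replicate 2. By CPM the median absolute log2 ratio of the 39 genes was 0.05.

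**Figure D4:**
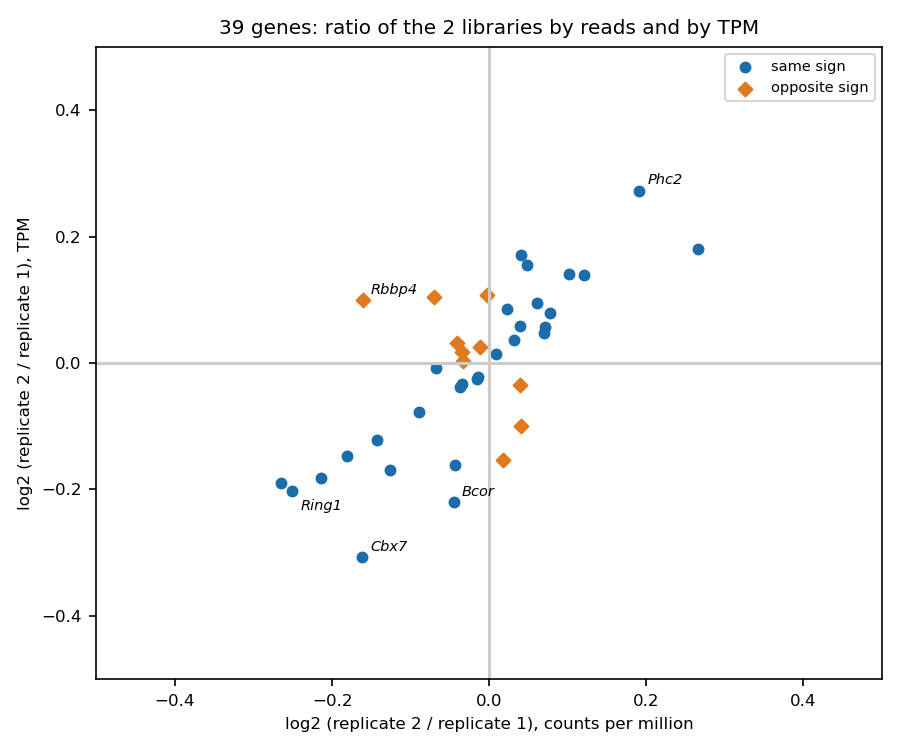
Log2 ratio of replicate 2 over replicate 1 for the 39 tested genes, by CPM (horizontal) and by TPM (vertical); diamonds mark the 10 genes whose signs differ. All points lie within 0.31 on the vertical axis, and Rbbp4 lies at the upper left, with fewer reads but a higher TPM in replicate 2.

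Exon overlap with a gene on the opposite strand at 1 TPM or more touched 9 of the 40 genes. The partners were Gm26625 (Ezh2), E230029C05Rik (Eed), Gm26563 (Suz12), Txlng (Rbbp7), Tmed5 (Mtf2), Cuta (Phf1), Trmt1l (Rnf2), Apobec3 (Cbx7) and Rnf34 (Kdm2b). Apart from Cuta, 3 partners exceeded 20 TPM: Tmed5 at 21.4 and 22.7 TPM, Trmt1l at 41.7 and 48.1 TPM and Rnf34 at 34.9 and 35.9 TPM. Each was lower than the gene it overlaps. Apobec3, at 9.22 and 8.80 TPM, exceeded Cbx7, with which it shares 100 nt of exon sequence on opposite strands. How reads in these stretches were divided was not tested. Sequence also found in other genes was highest in Phf1 (28.3% of 50-nt windows), Rbbp4 (17.2%) and Bmi1 (16.7%).

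Further Polycomb and Trithorax genes were read from a second list of 41, whose median was 21.7 TPM. In both libraries 40 of the 41 reached 1 TPM. The library test called 0 of the 40 tested at 2-fold, where it called 1.07% of all genes. Without the fold minimum it called 11 of the 40, or 27.5%, against 19.2% of all genes. The gene under 1 TPM was the PRC2 inhibitor Ezhip (annotated as AU022751), with 0 reads in both libraries. Other cofactors of PRC2 were low to moderate, with Lcorl at 21.3 and 22.2 TPM and Epop, which links PRC2.1 to elongin, at 13.2 and 13.1 TPM. On complete coding transcripts Epop kept its level and Lcorl had 7.73 and 6.34 TPM, so their order turned over. Among partners of variant PRC1 the casein kinase subunits Csnk2b (208 and 215 TPM) and Csnk2a1 (73.8 and 81.3 TPM) were highest, and Bcorl1, a paralog of Bcor, was lowest at 3.91 and 4.22 TPM.

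In the PR-DUB complex, which removes the ubiquitin that PRC1 adds, the sugar transferase gene Ogt stood at 135 and 126 TPM, the deubiquitinase Bap1 at 91.9 and 84.2 TPM, and Foxk1 was lowest on all transcripts at 5.44 and 5.08 TPM. On complete coding transcripts Bap1, at 74.4 and 69.4 TPM, lay above Ogt, at 64.7 and 65.0 TPM, and Foxk1 was no longer the lowest. Among SAM and MBT domain genes Mbtd1 (36.99 and 36.03 TPM) and Scmh1 (32.4 and 34.0 TPM) were highest on all transcripts, while complete coding ones left Scmh1 12.5 and 9.68 TPM. Sfmbt2 was lowest at 2.35 and 2.18 TPM. Yy1, a DNA-binding protein linked to Polycomb recruitment, stood at 18.72 and 19.02 TPM.

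Of the SET1 COMPASS genes, the CpG-binding subunit Cxxc1 stood at 79.7 and 82.6 TPM and Wdr82 at 23.48 and 24.99 TPM, above the enzyme Setd1b at 8.89 and 8.69 TPM, the lowest on all transcripts but not on complete coding ones. Of the MLL cofactors, Psip1, which encodes the chromatin tether LEDGF, stood at 239 and 233 TPM and Paxip1 at 40.9 and 35.9 TPM (21.7 and 18.7 TPM on complete coding transcripts), while Ncoa6 was lowest at 22.7 and 19.1 TPM. The methyltransferase Ash1l stood at 18.3 and 20.8 TPM. As with the KMT2 genes, the enzymes Setd1b and Ash1l lay below the shared subunits Wdr5, Rbbp5, Ash2l and Dpy30 in TPM. In reads not divided by length, Ash1l (3591 and 4162) lay above Dpy30, Wdr5 and Rbbp5 but below Ash2l. Setd1b lay below all of them by reads too.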

How the data were processed

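PolyA RNA of E12.5 limb was measured in 2 libraries of 1 group, with replicate numbers from the labels. Expected counts per gene and transcript, which need not be whole, were estimated and deposited by the authors, and the authors also deposited TPM and FPKM made from them. TPM was the main unit here and FPKM an alternative. Every library has tables for GENCODE M21 and for M4, both on mm10, per the labels and the deposited lists of files. What aligner and software made the estimates, and with which strand setting, is not given in the sources used here. Nothing in the labels says more of the replicates than that they are separate pools, so p-values measure the difference between these pools.

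From these files, TPM per library, ratios, family shares and transcript shares were computed with pandas 2.3.3. The spread between libraries is the 95th percentile over the 500 genes nearest in level. Expected counts were rounded for the exact binomial test (scipy 1.17.1), with edgeR 4.0.16 TMM library sizes or, as an alternative, DESeq2 1.42.0 size factors. With 2 libraries of 1 group no quasi-likelihood fit was possible. Genes needed a mean of 1 TPM for that test and 5 TPM for transcript shares. Entries other than GENCODE genes were left out of gene totals and tests. RNA spike-ins are inside the deposited TPM totals, where they take 7.34% in replicate 1 and 5.13% in replicate 2, which raises gene TPM slightly in replicate 2. The test and the spread were tested on simulated data, which for the test held counting error only. That checks the calculation and not how far the calls hold in these libraries. Depth allows few reads for low genes: Phf19 had 33 and 23. Counts without molecular identifiers cover counting error only.

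Named are all 40 genes, those with a second transcript of 25% or more, the 2 highest and the lowest of each role of the second list, and overlapping genes at 1 TPM. The complete-coding alternative and the alternatives for the second list were added after seeing the data. The genes, the lists and the 28 pairs were chosen with earlier results of these data known. Promoters are from RefSeq (33 of 40 genes matched).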

Additional observations from a re-analysis of the deposited data

How the results depend on the processing

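The number of genes at 1 TPM in both libraries was 39 under M4, FPKM, protein-coding transcripts, complete coding transcripts, either library alone and a minimum of 0.5 TPM, and 36 at 5 TPM. The complete coding alternative, and those for the second list, were chosen after seeing the data. The median TPM was 26.1 with M4, 15.97 as FPKM, 21.7 with protein-coding transcripts and 21.5 with complete coding ones, and 25.02 to 25.48 with either library left out. Pairs beyond the spread numbered 23 to 27 under every alternative run. For Rbbp4/Rbbp7 the log2 ratio turned to -1.22 with protein-coding and -1.23 with complete coding transcripts, and for Bmi1/Pcgf1 to 0.088 and 0.11. Complete coding transcripts also turned Jarid2/Mtf2 (0.68), Pcgf1/Pcgf6 (-0.014) and Kmt2c/Kmt2d (-1.82). All protein-coding transcripts did not turn these pairs (-0.81, 0.023 and 0.22). Counts not divided by length turned Jarid2/Mtf2 (0.29), Pcgf1/Pcgf6 (-1.49), Bmi1/Pcgf1 (1.93), Bcor/Pcgf1 (2.19), Kmt2c/Kmt2d (-0.98) and Dpy30/Wdr5 (-0.18), which by construction favours long transcripts. The same leading gene was found in 9 of 9 families with either library left out, 8 with M4, 7 with protein-coding transcripts or undivided counts, and 6 with complete coding transcripts.

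Members called between libraries stayed at 0 under 5 alternatives and became 8 with no fold minimum, and those of the second list went from 0 to 11. The count of genes with a second transcript of 25% was 10 to 15 with a library left out, 8 by reads (3 of them among the 7) and 8 with M4 (6 of them among the 7). No paired analysis was possible because the labels give 1 group. Depth limits Phf19 and Cbx7 most. The cause of the other changes was not tested.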
